A study of Mus musculus with 12 samples.

Results

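Interferon-stimulated genes are the genes that cells switch on when they receive an interferon signal, and 37 of them, drawn from the textbook core of the type I response, were followed here in the mouse striatum. The list was made by name from the genes' known function, with earlier results of these data known. An array probe set paired with that gene alone existed for 35 of them, out of 18193 genes measured in this way. Isg15 and Ifi44 were left out because no probe set was paired with either of them alone. Where a gene had several probe sets, which was so for 14 members, the one with the highest mean over all mice was used.

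Cells that sense viral nucleic acid, or their own nucleic acid in the wrong place, secrete type I interferons. These bind the receptor chains Ifnar1 and Ifnar2, activate the kinases Jak1 and Tyk2, and bring Stat2 and Irf9 into a complex that binds interferon-stimulated response elements in target promoters. The induced proteins sense, bind or degrade foreign RNA, block viral entry and release, and feed back on the signal, and in the ageing brain interferon-responsive microglia are a described state.

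The study used C57BL/6 mice that were either wild type or homozygous for the HdhQ92 knock-in allele (Q92), in which the mouse Huntington's disease gene carries 92 CAG repeats brought in with part of the human gene's first exon. Striatal RNA was hybridised to 12 Affymetrix whole-genome mouse arrays, 1 mouse an array and 3 mice in each of 4 groups. The groups were wild type at 3 months (100 to 103 days), Q92 at 3 months (100 to 103 days), wild type at 18 months (596 to 604 days) and Q92 at 18 months (567 to 596 days), and no other treatment was labelled. Mice are named by group and animal number: wt_3m_436, wt_3m_438 and wt_3m_467; Q92_3m_439, Q92_3m_440 and Q92_3m_466; wt_18m_9, wt_18m_12 and wt_18m_17; and Q92_18m_11, Q92_18m_25 and Q92_18m_66. Values of a group are always given in that order. Each group held both sexes, not balanced over the groups: wt_3m_436, wt_3m_467, Q92_3m_466, wt_18m_12 and Q92_18m_11 were male, and the other mice were female.

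Signals are deposited log2 values, which ran from 2.03 to 14.1, so a difference of 1 is a doubling. They measure hybridisation to a probe set, and levels of different genes cannot be set against each other. The 8 measured striatal projection neuron markers had mean signals between 8.60 and 11.34. Dhx58, Irf7, Oas3, Isg20 and Mx1 had mean signals of 4.27 or less, within the lowest 40% of probe sets, and are called dim. Usp18, Ifit1, Oasl2 and Gbp2 were also below 4.27 in every young mouse. Only higher values in old mice put their means above it, so their spans start from signals this low.

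The promoters of the members were searched for the interferon-stimulated response element, and matching stretches are shown for members with a wide spread among mice. RefSeq promoters on build GRCm38.p6, from 250 bases before to 50 after each start, were found for 26 of the 35 members. The element was searched as GAAANNGAAA on both strands, with overlapping matches allowed, and was present in 13 of the 26, against 3.99% of 27025 genes with a promoter entry. Of the 12 members with the largest range over the mice, 10 had an entry and 6 held a match. In 5 of these the match lay before the start, and their stretches are shown with 30 bases on each side where the window before the start allowed, written 5′ to 3′ on the gene's strand. Capitals mark the element, which in each case lies on the opposite strand and so reads as its reverse complement.
Ifit1: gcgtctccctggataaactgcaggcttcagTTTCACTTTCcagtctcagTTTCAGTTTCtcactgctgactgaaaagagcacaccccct
Ifit3: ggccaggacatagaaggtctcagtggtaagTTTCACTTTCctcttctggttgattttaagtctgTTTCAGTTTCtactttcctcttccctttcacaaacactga
Gbp3: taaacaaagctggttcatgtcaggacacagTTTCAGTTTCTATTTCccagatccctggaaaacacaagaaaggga
Trim30a: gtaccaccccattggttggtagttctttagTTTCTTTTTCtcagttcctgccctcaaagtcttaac
Gbp2: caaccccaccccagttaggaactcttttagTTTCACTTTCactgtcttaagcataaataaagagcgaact

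The Ifit1 stretch lies at chr19:34640755-34640843 on the + strand, at positions -134 to -46 from the start, and holds 2 matches. Ifit3 lies on the same chromosome at chr19:34583343-34583446 (+), at positions -186 to -83 from its start, also with 2 matches. The Gbp3 stretch at chr3:142559969-142560043 (+) holds 2 matches that overlap, so its capitals run on. Gbp2 is at chr3:142620574-142620643 (+) and Trim30a at chr7:104465194-104465259 (-), with 1 match each. All of these stretches are upstream of transcribed sequence, in the promoter window of the named gene. Ifitm3 has its matches at or after the start. The gamma-activated site, searched as TTCNNNGAA, was in 9 of the 26 members (34.6%) against 9.55% of genes. A match is a string of letters and not a measured binding site, and no match says only that these letters are missing from the window.

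In young striatum the members were flat, and in old striatum they differed from mouse to mouse. Each member's signal was set against its own mean in wild type at 3 months, and the median over the 35 members was taken per mouse. At 3 months this median was -0.06, -0.03 and 0.11 in wild type and 0.04, -0.01 and -0.03 in Q92. At 18 months it was 0.24, 0.62 and 1.67 in wild type, and 0.23, -0.00 and 0.87 in Q92. One wild-type mouse, wt_18m_17, stood highest, one Q92 mouse, Q92_18m_66, stood above the other 2 wild-type mice, and Q92_18m_25 was at the level of young mice.

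**Figure D1:**
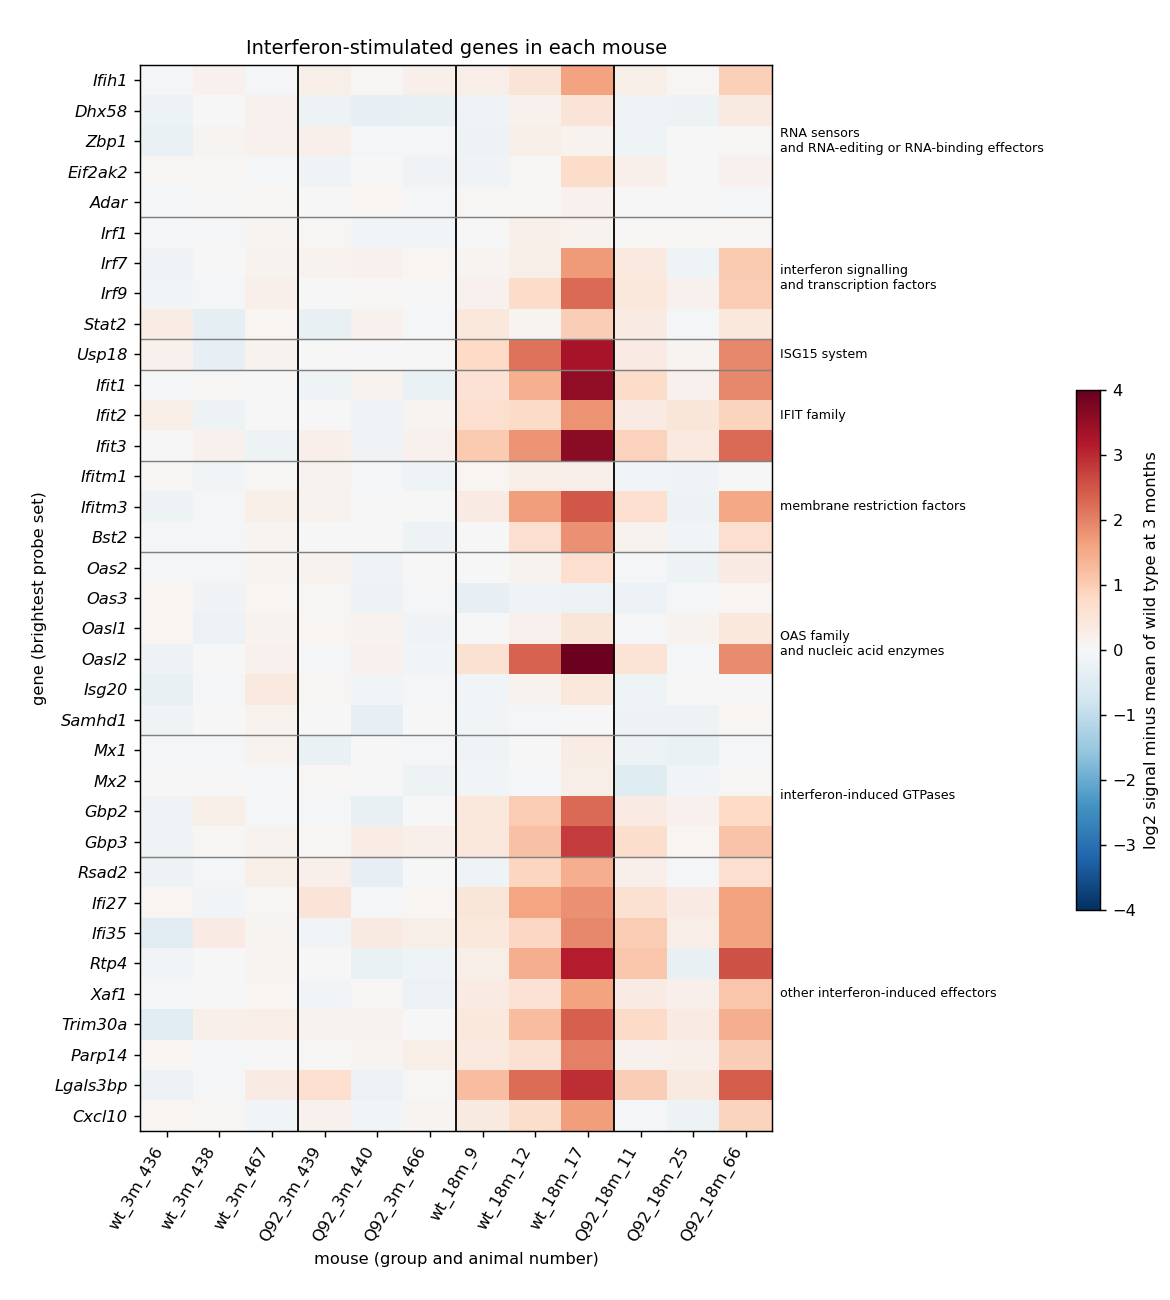
Heat map of the 35 members (rows, ordered by role) in the 12 mice (columns, by group), with colour giving log2 signal minus the member's mean in wild type at 3 months. The columns of wt_18m_17 (median 1.67) and Q92_18m_66 (median 0.87) carry most of the dark colour, and the 6 columns at 3 months stay pale.

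The same mice recurred from member to member. wt_18m_17 had the highest signal of all 12 mice in 30 of the 35 members, as it did in 6.46% of all genes. Q92_18m_66 had the highest signal in none of them and the second highest in 19, against 9.49% of all genes for second place. Among old wild-type mice the order wt_18m_17 over wt_18m_12 over wt_18m_9 was seen in 30 members and in 12.9% of all genes, and among old Q92 mice the order 66 over 11 over 25 was seen in 24 members and in 21.9% of all genes. Members lie in 1 pathway and share each mouse's RNA, so they are not separate replicates of these orders.

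The spread within a group was therefore much larger at 18 months. The median SD of the members was 0.16 in wild type and 0.14 in Q92 at 3 months, against 0.71 and 0.39 at 18 months, while the median over all genes stayed between 0.11 and 0.13 in the 4 groups. The SD was larger in old than in young mice for 29 of 35 members in wild type (42.1% of all genes) and for 29 in Q92 (53.4%). wt_18m_17 exceeded all 6 young mice in 32 members, wt_18m_12 and Q92_18m_66 in 26 each, Q92_18m_11 in 19, wt_18m_9 in 17 and Q92_18m_25 in 5. For all genes these shares ran from 16.9% to 25.9%.

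Members are described next by role, starting with the proteins that sense RNA. Ifih1 encodes MDA5, a sensor of long double-stranded RNA, and ranged over 1.68 among the 12 mice with its top value of 6.28 in wt_18m_17. The other 4 members of this role stayed within 0.89: Dhx58 (LGP2, a relative of MDA5), Zbp1 (a sensor of Z-form nucleic acid), Eif2ak2 (PKR, which shuts down translation) and Adar (an RNA-editing enzyme). Adar varied least of all 35, by 0.25, but its other probe sets ranged over 0.84 and 0.62. The other Eif2ak2 probe sets ranged over 0.63 and 1.75. Ifih1 was 0.80 higher in wild type at 18 than at 3 months (SE 0.29, limma adjusted p = 0.389), and all 3 old wild-type mice lay above all 3 young ones.

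Of the 4 signalling factors, Irf9, the DNA-binding subunit of that complex with Stat2, varied most. Irf9 read 5.23, 5.24 and 5.52 in wild type and 5.31, 5.37 and 5.32 in Q92 at 3 months. At 18 months it read 5.49, 6.06 and 7.60 in wild type and 5.76, 5.50 and 6.35 in Q92. The young and the old wild-type mice overlapped, whereas all 3 old Q92 mice were above all 3 young Q92 mice. Irf7, which amplifies interferon production, reached 5.66 in wt_18m_17 and 5.00 in Q92_18m_66 and lay between 3.78 and 4.36 in the other 10 mice. Stat2 ranged over 1.34, and Irf1, a factor induced mainly by interferon gamma, over 0.33.

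Usp18 removes the ubiquitin-like protein Isg15 from its targets and damps signalling at the interferon receptor. Usp18 read 3.88, 3.39 and 3.86 in young wild type and 3.71, 3.70 and 3.74 in young Q92. At 18 months it read 4.51, 5.88 and 7.01 in wild type and 4.03, 3.81 and 5.62 in Q92, a 12.3-fold span over the 12 mice. Every old wild-type mouse was above every young one, and the old Q92 mice overlapped the old wild-type mice because Q92_18m_66 exceeded wt_18m_9.

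The IFIT proteins bind RNA that lacks the marks of self. Ifit1 read 3.88, 3.96 and 3.92 in young wild type, 3.75, 4.06 and 3.66 in young Q92, 4.50, 5.33 and 7.48 in old wild type, and 4.65, 4.08 and 5.85 in old Q92. Ifit3, its partner, read 5.72, 5.89 and 5.52, then 5.90, 5.56 and 5.89, then 6.76, 7.52 and 9.33, and in old Q92 6.62, 6.10 and 7.99. For both genes all 6 old mice lay above the 6 young mice (narrowly for Ifit1 in Q92_18m_25), and old Q92 overlapped old wild type. Ifit2 ranged over 1.99 and showed the same separation by age within each genotype.

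Among membrane proteins that restrict viruses, Ifitm3, which blocks fusion in endosomes, read 7.43, 7.58 and 7.87 in young wild type and 7.77, 7.61 and 7.60 in young Q92. In old mice it read 7.94, 9.30 and 10.12 in wild type and 8.30, 7.41 and 9.17 in Q92. Old wild type lay above young wild type by a narrow margin, and Q92_18m_25 was below every young mouse. Bst2 (tetherin, which holds budding virus at the cell surface) ranged over 2.03 with its highest value, 6.63, in wt_18m_17. Ifitm1 ranged over 0.42.

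The OAS family split sharply. Oasl2, an OAS-like protein, had the widest range of all members, 4.10 or 17.1-fold. It read 3.60, 3.81 and 3.97 in young wild type and 3.72, 3.98 and 3.67 in young Q92, then 4.39, 6.16 and 7.70 in old wild type and 4.35, 3.71 and 5.69 in old Q92. Old wild type did not overlap young wild type, while Q92_18m_25 lay among the young mice. Oas2 and Oas3, which make the oligoadenylates that activate RNase L, ranged over 0.88 and 0.42, and Oasl1 over 0.72. The exonuclease Isg20 ranged over 0.73 and the nucleotide hydrolase Samhd1 over 0.46, and Oas3 was the only member that was higher in mean in old Q92 than in old wild type.

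The interferon-induced GTPases split as well. Gbp3, a guanylate-binding protein that acts on intracellular pathogens, read 4.65, 4.86 and 4.97 in young wild type and 4.88, 5.11 and 5.04 in young Q92, then 5.26, 6.00 and 7.63 in old wild type and 5.52, 4.91 and 5.97 in old Q92. Gbp2 of the same family read 3.83, 4.22 and 3.89, then 3.91, 3.69 and 4.0, then 4.40, 5.00 and 6.24, and in old Q92 4.30, 4.14 and 4.79. For both genes old wild type lay above young wild type, with wt_18m_17 highest. The other Gbp2 probe set ranged over 2.51, against 2.55 for the one shown. Mx1 and Mx2, dynamin-like antiviral GTPases, ranged over 0.56 and 0.73. Mx1 had the lowest mean signal of the members, 2.62.

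The remaining 9 members are effectors of mixed function, and 4 of them were among the 12 widest. Rtp4, a transmembrane protein first known for carrying receptors to the cell surface, read 4.89, 5.04 and 5.11 in young wild type and 5.04, 4.76 and 4.83 in young Q92, then 5.25, 6.47 and 8.14 in old wild type and 6.11, 4.72 and 7.55 in old Q92. Lgals3bp, a secreted galectin-binding glycoprotein, read 5.23, 5.37 and 5.77, then 6.13, 5.22 and 5.49, then 6.70, 7.70 and 8.42, and in old Q92 6.43, 5.83 and 7.87. In Rtp4 the mouse Q92_18m_66 came close to wt_18m_17, and Q92_18m_25 was the lowest of all 12. The other Rtp4 probe set, with a mean signal of 2.95, ranged over 1.04, against 3.42. Its age difference in wild type was 0.25, against 1.61. In Lgals3bp the old wild-type mice lay above all 6 young mice.

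Trim30a, a tripartite-motif protein that restrains innate immune signalling, read 4.93, 5.58 and 5.63 in young wild type and 5.52, 5.52 and 5.37 in young Q92, then 5.80, 6.61 and 7.78 in old wild type and 6.16, 5.71 and 6.82 in old Q92. Ifi35 read 4.32, 5.07 and 4.86, then 4.63, 5.11 and 4.98, then 5.16, 5.57 and 6.66, and in old Q92 5.78, 5.00 and 6.37. In Trim30a all 6 old mice were above all 6 young mice. In Ifi35 this held for 5 of the 6, with Q92_18m_25 inside the young range. The other Ifi35 probe sets ranged over 0.95 and 1.35, against 2.34 for the one shown. Their age differences in wild type were 0.20 and 0.41, against 1.04. The other Trim30a probe set ranged over 2.45, against 2.85. Rsad2 (viperin, an antiviral enzyme), Ifi27, Xaf1 (a pro-apoptotic protein), Parp14 (an ADP-ribosyltransferase) and the chemokine Cxcl10 ranged from 1.78 to 2.11, each with wt_18m_17 highest. Their other probe sets ranged over 1.02 and 1.71 for Rsad2, 2.07 for Ifi27, 0.27 for Xaf1 and 0.58 for Parp14.

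**Figure D2:**
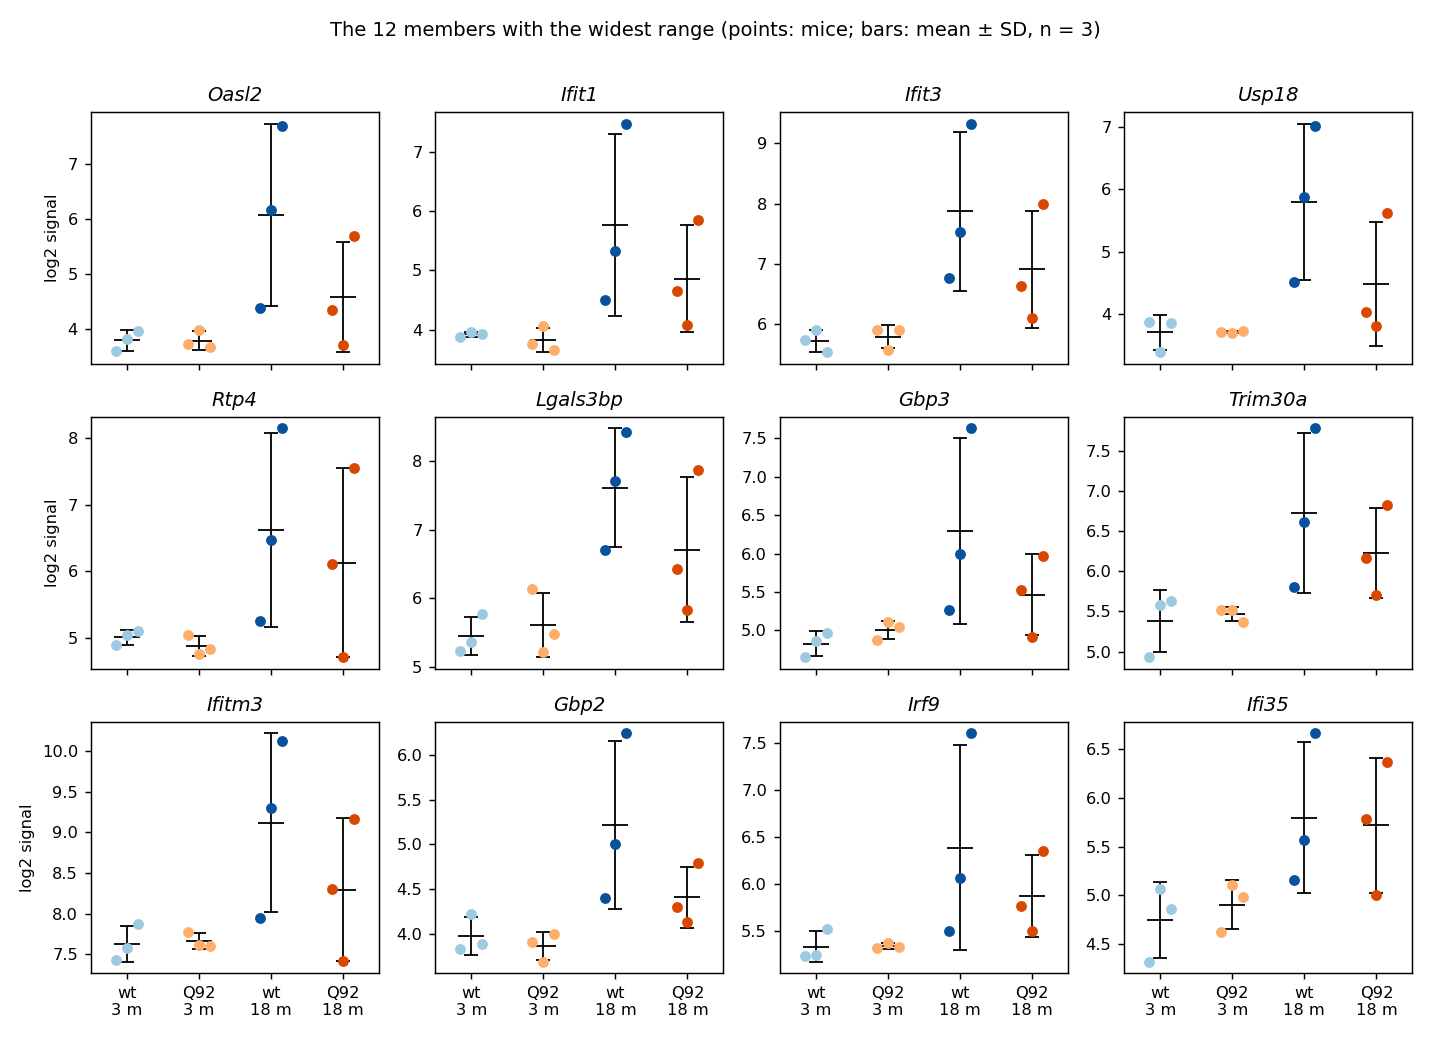
Log2 signal in each mouse (points) and group mean with SD (bars, n = 3) for the 12 members with the largest range, in wild type and Q92 at 3 and 18 months (1 panel a gene, points in the order of mouse number). In each panel wt_18m_17 is the top point, and the young groups are tight beside the old ones.

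The first comparison asks whether the members differ between young and old wild-type striatum. They were higher in mean at 18 months in 33 of 35, with a median difference of 0.83 (1.78-fold), against a median of -0.01 over all genes. The widest differences were Oasl2 at 2.29 (SE 0.64, 4.88-fold, adjusted p = 0.277), Ifit3 at 2.16 (SE 0.55, 4.47-fold, adjusted p = 0.236) and Lgals3bp at 2.15 (SE 0.48, 4.44-fold, adjusted p = 0.182). Usp18 followed with 2.09 (SE 0.53, adjusted p = 0.237) and Ifit1 with 1.85 (SE 0.59, adjusted p = 0.325). Only Oas3 (-0.24) and Samhd1 (-0.04) were lower in mean. The other Samhd1 probe sets differed by 0.16, 0.01, 0.45 and -0.05.

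No member passed the limma test adjusted over all probe sets, where 0.0715% of genes did. At an unadjusted p under 0.05 there were 21 members higher, and 6.52% of all genes were. In 18 members all 3 old mice lay above all 3 young mice, against 9.76% of all genes. The members' median SE was 0.31 against 0.12 over all genes, and the fit pools the residual spread of the 4 groups. Without wt_18m_17 the median was 0.39 and 12 members had an unadjusted p under 0.05, and without wt_18m_9 they were 1.16 and 23. With sex as covariate the median was 0.77, with 18 such members.

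In bulk tissue, more cells of a type and more RNA per cell cannot be told apart, and markers of microglia moved with this result. The mean level of 13 microglia markers was 7.08 to 7.29 in young wild type, 7.17 to 7.40 in young Q92, 7.59 to 7.96 in old wild type, and 7.14, 7.32 and 7.97 in old Q92. It was highest in wt_18m_17 and Q92_18m_66, the 2 mice with the highest members. In old wild type 12 of the 13 markers were higher in mean (median 0.40). None passed the adjusted limma test, and 6 were higher at an unadjusted p under 0.05, against 6.52% of all genes. C1qb, which encodes a chain of the complement protein C1q, read 9.13, 9.30 and 9.81 in old wild type and 8.67, 8.40 and 9.57 in old Q92. The mouse wt_18m_9 had microglia markers at 7.62, as high as wt_18m_12 at 7.59, with member medians of 0.24 and 0.62. With the microglia mean added as a covariate, an alternative chosen after seeing the data, the members' median age difference in wild type was 0.13, and no member had an unadjusted p under 0.05. In wild type the marker mean did not overlap between the ages, so this fit cannot separate it from age. The part of microglia in the result was not tested.

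Markers of infiltrating cells were mostly dim. Of 12 T and NK cell markers 9 were dim, and their median against young wild type was -0.10 in wt_18m_17 and -0.08 in Q92_18m_66, with Cd3e at 5.55 and 5.57 in these mice against 5.62 to 5.78 in young wild type. Of 8 markers of border macrophages and monocytes 6 were dim, and their mean level was 4.03, 4.04 and 4.12 in old wild type and 3.98, 3.88 and 4.02 in old Q92, against 3.84 to 4.03 in the young mice. These small differences run in the members' order, with wt_18m_17 highest, and their part in the result was not tested. Of 5 B and plasma cell markers 4 were dim, with mean levels of 4.19, 4.38 and 4.38 in old wild type and 4.32, 4.63 and 4.12 in old Q92, against 4.17 to 4.43 in the young mice. Gfap, the intermediate filament of reactive astrocytes, passed the test for age in wild type (1.86 higher, SE 0.26, limma adjusted p = 0.0304), but read 8.66, 8.40 and 8.54 in the old wild-type mice, without the members' order.

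Markers of neighbouring tissue differed among mice too. The median of 6 thalamic neuron markers against young wild type was -0.31, 0.27 and 0.77 in old wild type and -0.61, -0.66 and 1.23 in old Q92, so that wt_18m_17 and Q92_18m_66 were again highest among old mice. It was 0.75 in wt_3m_438, where the members' median was -0.03. Choroid plexus markers stood at 2.33 in wt_18m_12 and 2.35 in Q92_3m_439, where the members' medians were 0.62 and 0.04. The part of thalamic tissue in the old mice was not tested.

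**Figure D3:**
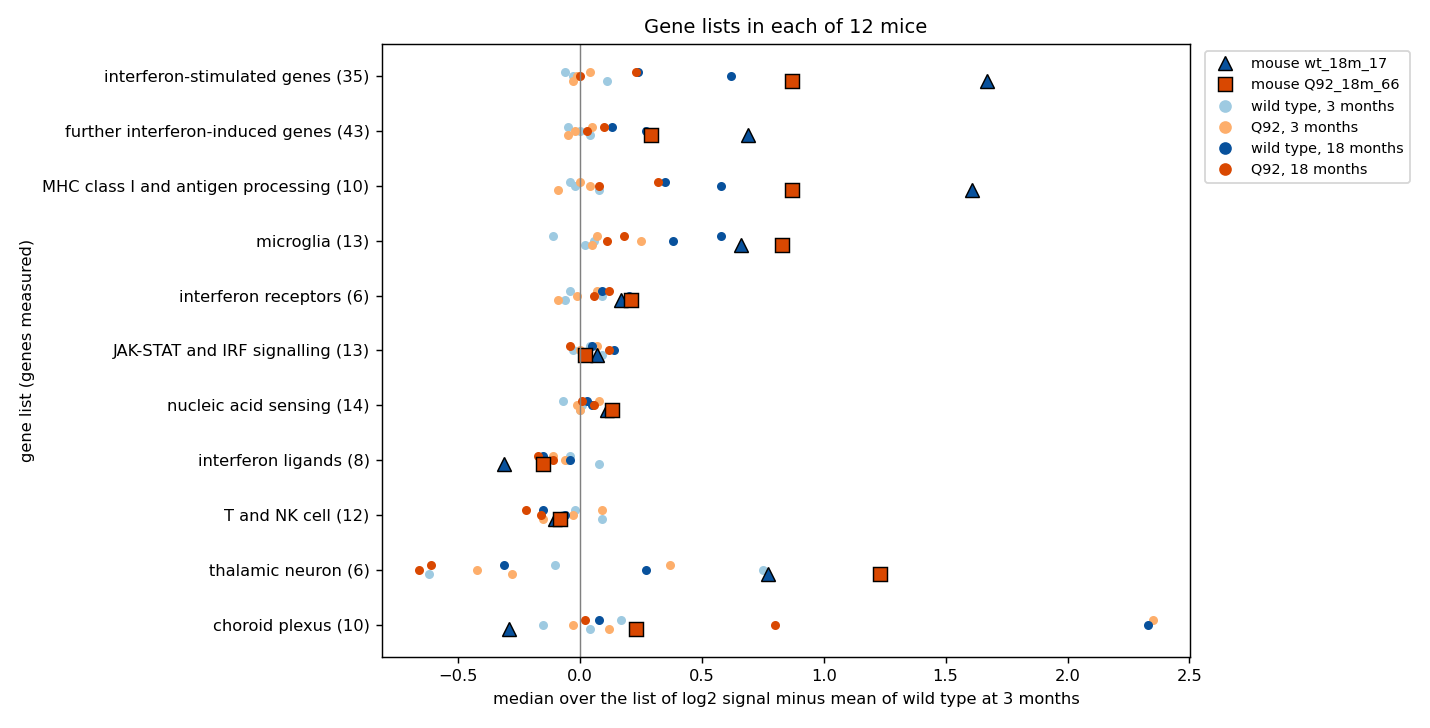
Median over each gene list (rows, genes measured in brackets) of log2 signal minus the mean of wild type at 3 months, 1 point a mouse, coloured by group and with wt_18m_17 and Q92_18m_66 marked by shape. The interferon-stimulated genes and the MHC class I genes spread furthest to the right in wt_18m_17 (1.67 and 1.61), while T and NK cell markers stayed near 0.

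The second comparison asks whether Q92 and wild-type mice differ at 18 months. The members were lower in mean in old Q92 mice in 34 of 35, with a median of -0.39 against -0.00 over all genes. Oasl2 was lowest relative to wild type, at -1.49 (SE 0.64, 95% confidence interval -2.89 to -0.10, adjusted p = 0.602), followed by Usp18 at -1.31 (SE 0.53, interval -2.47 to -0.15, adjusted p = 0.569). Ifit3 differed by -0.96 (SE 0.55, adjusted p = 0.722), Ifit1 by -0.91 (SE 0.59, adjusted p = 0.771) and Lgals3bp by -0.90 (SE 0.48, adjusted p = 0.700). Ifi35 differed by -0.08. Array weights moved the median to -0.61, with 17 members at an unadjusted p under 0.05. Age in days as a block moved it to -0.83 with 22 such members, where the estimate rests on wt_18m_12, wt_18m_17 and Q92_18m_11, the mice of a shared age of 596 days.

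None of the members passed the adjusted limma test for genotype at 18 months, against 0.0770% of all genes. At an unadjusted p under 0.05, 5 members were lower (Usp18, Oasl2, Gbp2, Cxcl10 and Ifitm1), and 4.95% of all genes were. When limma was fitted on only the arrays compared, 1 member had such a p. The old groups did not overlap in 2 members, Adar and Ifitm1, which differed by -0.14 and -0.25, against 7.51% of all genes with all 3 Q92 mice lower. Q92_18m_66 exceeded wt_18m_9 in 32 members (55.9% of all genes) and wt_18m_12 in 22 (52.2% of all genes), the latter near the share of any gene. Without wt_18m_17 the median was -0.07 and no member had an unadjusted p under 0.05, and without wt_18m_9 it was -0.66 with 20 such members. Without Q92_18m_66 it was -0.63 with 16, and without Q92_18m_25 it was -0.22 with none, as there was none without Q92_18m_11. The microglia markers were also lower in mean in old Q92 in 11 of 13 (median -0.23), and with their mean as covariate the members' median was -0.15. All 10 endothelial and pericyte markers were lower in mean in old Q92 (median -0.17, 3 at an unadjusted p under 0.05, none past the adjusted test), with mean levels of 7.29, 7.36 and 7.46 in old wild type and 7.23, 7.06 and 7.26 in old Q92. Of 10 astrocyte markers 9 were lower (median -0.19). Their part in the result was not tested. The projection neuron markers differed between the same mice, with medians of 0.03, -0.07 and -0.08 in old wild type and -0.95, -0.61 and -1.47 in old Q92, and their part in the result was not tested.

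The same comparison at 3 months gave small differences in both directions. Here 17 members were higher and 18 lower in Q92, with a median of -0.00 (all genes -0.02), from -0.27 for Dhx58 to 0.18 for Gbp3. No member passed the adjusted limma test (0.0165% of genes did), none had an unadjusted p under 0.05 (2.27% of genes), and in none did the groups separate (6.64% of genes). The groups at 3 months are the ones whose spread was small, with a median SD of 0.16 and 0.14.

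The age comparison within Q92 shared no mice with that within wild type, and each genotype comparison shares a group with each age comparison. In Q92, 28 of 35 members were higher in mean at 18 months, with a median of 0.31 (all genes 0.01). Rtp4 was 1.25 higher (SE 0.67, adjusted p = 0.552), Ifit3 1.12 (SE 0.55, adjusted p = 0.50), Lgals3bp 1.10 (SE 0.48, adjusted p = 0.447) and Ifit1 1.04 (SE 0.59, adjusted p = 0.584). None passed the adjusted limma test, against 0.264% of genes. At an unadjusted p under 0.05 there were 3, Ifit2, Xaf1 and Lgals3bp, against 7.42% of genes.

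All 3 old Q92 mice were above all 3 young ones in 8 members (Irf9, Usp18, Ifit1, Ifit2, Ifit3, Gbp2, Xaf1 and Trim30a), and in 10% of all genes. Without Q92_18m_66 the median in Q92 was 0.12, and without Q92_18m_25 it was 0.48. Microglia markers in Q92 had a median age difference of -0.01, with 6 of 13 higher in mean.

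The difference between the genotype effects at the 2 ages was tested directly. The median over the members was -0.39 (all genes 0.02), with Oasl2 at -1.49 (SE 0.91, adjusted p = 0.950), Usp18 at -1.32 (SE 0.75, adjusted p = 0.950), Lgals3bp at -1.05, Ifit3 at -1.04 and Gbp3 at -1.02. Neither a member nor any other gene passed the adjusted limma test (0% of genes), and no member had an unadjusted p under 0.05 (5.80% of genes did). Without wt_18m_17 this median was -0.05, and without wt_18m_9 it was -0.71.

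**Figure D4:**
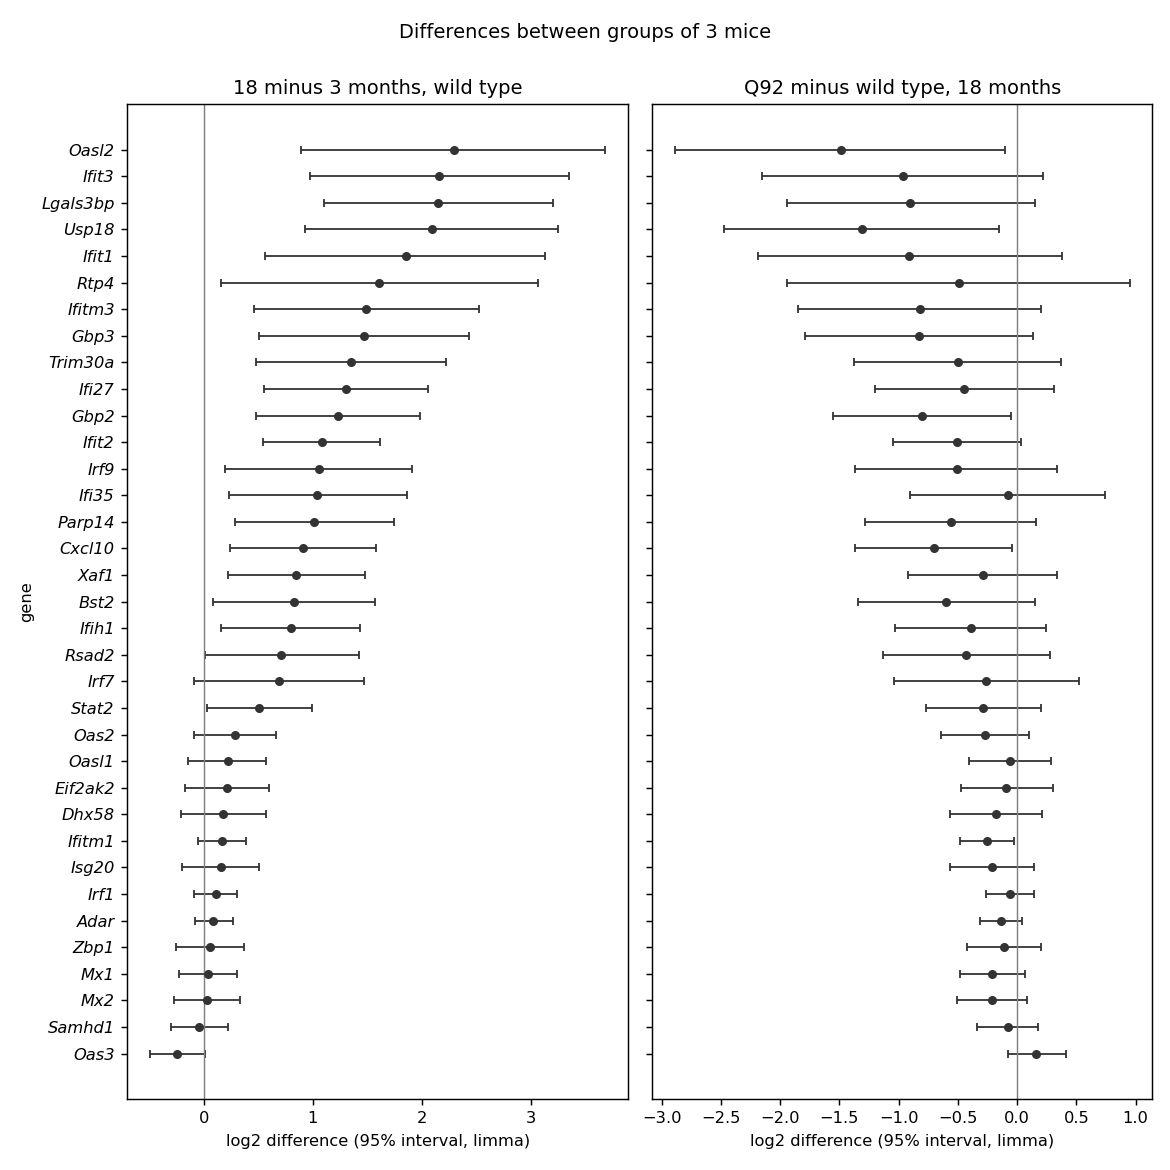
Log2 difference of each member (points) with its 95% confidence interval from limma (lines) for age in wild type and for Q92 against wild type at 18 months. The intervals use a spread pooled over the 4 groups, young and old. For age 33 of 35 members lie right of 0, up to 2.29 for Oasl2, and for genotype 34 lie left of 0, down to -1.49.

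**Figure D5:**
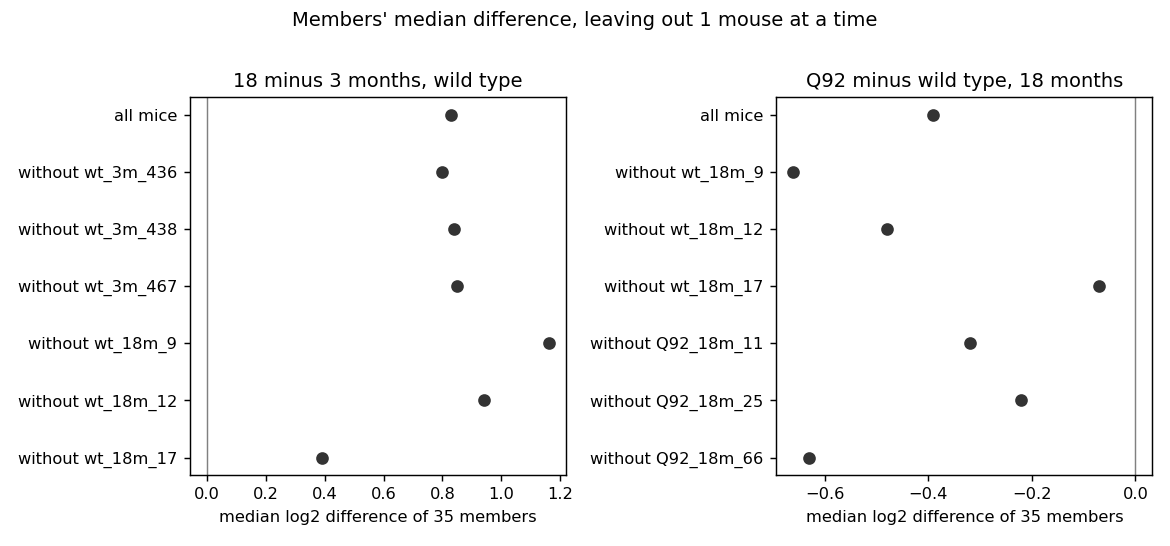
Median log2 difference over the members with all mice (top point of each panel) and with 1 mouse of the 2 compared groups left out at a time, for age in wild type and genotype at 18 months. Leaving out wt_18m_17 brought age in wild type to 0.39 and genotype at 18 months to -0.07.

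Genes upstream of the members differed less among the mice. The 8 measured interferon ligands were all dim, and their median against young wild type was -0.31 in wt_18m_17 and -0.15 in Q92_18m_66. Ifnb1, the founding type I interferon, read 3.45 and 3.65 in these mice and 3.66 to 3.86 in young wild type, and Ifng read 2.60 and 2.52. The 6 receptor chains had medians of 0.09, 0.20 and 0.17 in old wild type and 0.12, 0.06 and 0.21 in old Q92, which is the members' order in Q92 but not in wild type. Ifnar1 ranged over 0.33 and Ifnar2 over 0.52.

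Ifngr2, a chain of the interferon gamma receptor, was the only gene of the pathway lists past the adjusted limma test. It was 0.76 higher in Q92 at 18 than at 3 months (SE 0.10, adjusted p = 0.0175), reading 6.46, 6.41 and 6.43 in old Q92 against 5.53 to 5.78 in young Q92. It read 6.20, 6.04 and 5.88 in old wild type, so that wt_18m_17, where the members were highest, was lowest of the old mice. Its age difference in wild type was 0.19 (SE 0.10, adjusted p = 0.535).

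The 13 kinases, STATs and other interferon regulatory factors had medians between -0.04 and 0.14 in the old mice. Irf8, a factor of the myeloid lineage, ranged most, over 1.20, reading 5.83, 5.83 and 6.07 in old wild type and 5.44, 5.45 and 5.58 in old Q92 against 4.88 to 5.34 in young wild type. Its age difference in wild type was 0.78 (SE 0.12, adjusted p = 0.0563). None of the 13 passed in any comparison, and 2 were higher at an unadjusted p under 0.05 for age in wild type, as were 6.52% of all genes. Of the 14 nucleic acid sensors and adaptors, none passed in any comparison and 3 were higher with age in wild type at that unadjusted level. Trim25, the ubiquitin ligase of the RIG-I pathway, ranged over 1.63 and read 5.96, 6.38 and 6.78 in old wild type and 5.88, 5.55 and 6.11 in old Q92, which is the order of the members. Trim25 is also counted among the further interferon-induced genes below. Ddx58, which encodes RIG-I, ranged over 1.02 with 5.78 in wt_18m_17.

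Other genes downstream of interferon shared the members' pattern in part. Of 43 further interferon-induced genes, 32 were higher in mean in old wild type (median 0.33), against 8605 of all 18193 genes. At an unadjusted p under 0.05, 19 were higher (6.52% of all genes) and 2 lower, and none passed the adjusted test. wt_18m_17 had the highest signal of the 12 mice in 27 of the 43, against 6.46% of all genes. The members' order among old wild-type mice was seen in 25 (12.9% of all genes), their order among old Q92 mice in 23 (21.9%), and both in 20 (3.73%). Gbp6 ranged over 3.08, reading 4.31, 6.30 and 6.76 in old wild type and 4.28, 3.68 and 5.50 in old Q92. Iigp1, a GTPase of the immunity-related family, read 4.65, 5.82 and 7.02, and 4.82, 4.39 and 5.85. Both genes put wt_18m_17 first in wild type and Q92_18m_66 first in Q92.

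The 10 measured genes of MHC class I and antigen processing, which interferon also induces, were all higher in mean in old wild type, with a median of 0.83, and in old Q92, with a median of 0.42. At an unadjusted p under 0.05, 8 were higher in old wild type (6.52% of all genes) and 4 in old Q92 (7.42%), and none passed the adjusted test. B2m, the light chain of the class I molecule, read 10.14, 10.76 and 11.43 in old wild type and 10.20, 9.67 and 11.14 in old Q92, against 9.31 to 9.38 in young wild type and 9.36 to 9.47 in young Q92. H2-D1 and H2-K1, class I heavy chains, were 1.71 (SE 0.31, adjusted p = 0.107) and 1.65 (SE 0.31, adjusted p = 0.114) higher with age in wild type. All 6 old mice were above all 6 young mice in these 3 genes.

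The members also differed in how closely they kept to their own mean profile over the 12 mice. Each gene was centred and scaled over the mice, and its Euclidean distance to the members' mean profile was taken. Ifit1 (0.53) and Oasl2 (0.60) were nearest, Samhd1 (4.0) and Oas3 (5.40) farthest, and the median was 1.28 over members and 4.92 over the 18158 other genes. The profile averaged the unscaled signals of these same members, so members of wide range weigh most in it. That members lie nearer to it than other genes is therefore partly built in and is no test. Among those others the nearest 10 were Iigp1 (0.64), the chemokine Ccl12 (0.67), Irgm2 (0.71), Irgm1 (0.73), Lgals9 (0.74), Ifi27l2a (0.76), the oxidase subunit Cybb (0.78), Slc15a3 (0.80), Ncf1 (0.89) and Igtp (0.93). Of these, 5 stood on the list of further interferon-induced genes. Ccl12 read 3.90, 5.12 and 6.11 in old wild type and 4.01, 3.53 and 5.14 in old Q92, against 3.26 to 3.59 in the young mice.

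A second reading of the same RNA came from the members' other probe sets. The 14 members with several had 22 besides the brightest, and 17 of these were higher in mean in old wild type, 16 lower in old Q92 than in old wild type, and 15 highest in wt_18m_17. They come from the same arrays, so they repeat the measurement of a gene and not the mouse.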

How the data were processed

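Values were used as deposited, on a log2 scale, and were made by RMA with the affy package, per the submitters' processing notes. RMA sets arrays to a common distribution, so a change in total RNA cannot be seen; whether all 12 arrays were processed as 1 set is not stated. Of 45101 probe sets, 64 controls were left out. Platform annotation paired 34945 probe sets with 1 gene, 932 with several and 9160 with none. Of the 34945 probe sets, 34741 carried a gene identifier found in RefSeq. Differences were fitted with limma 3.58.1 in R 4.3.3 (4 groups, 8 residual degrees of freedom, prior 4.5), p-values were adjusted by Benjamini-Hochberg over all 45037 probe sets, and the threshold was 0.05. Code was tested on simulated data. Depth has no counterpart on arrays, and 3 mice a group limit the precision. The 3 mice of a group carry separate animal numbers.

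Members and lists (6 pathway and 13 marker lists, 228 entries, 199 measured) were chosen with earlier results of these data known. Trim25 is entered on both the nucleic acid sensing and the further interferon-induced list. Values in all mice are given for the 12 members of largest range, pathway genes are named if past the threshold or among the 3 of largest range per list, and the 10 nearest profiles are listed. Dim means a mean signal of 4.27 or less. C1qb, Cd3e, Gfap, Ifnb1, Ifng, Ifnar1 and Ifnar2 were named for their roles after their values were seen. Alternatives were quantile normalisation, a common median, dim probe sets left out, an intensity trend with robust prior, array weights, sex as covariate, age in days as block, only the arrays compared, the mean of a gene's probe sets, each mouse left out, and a microglia covariate.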

Additional observations from a re-analysis of the deposited data

How the results depend on the processing

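No member passed the adjusted test in any of 82 fits over 22 alternatives, the lowest adjusted p being 0.0741. The microglia covariate, chosen after seeing the data, moved the members' median to 0.13 for age in wild type and to -0.10 for genotype at 3 months. Its values did not overlap between young and old wild type, so that fit cannot separate it from age. Leaving out 1 mouse gave medians of 0.39 to 1.16 for age in wild type, -0.66 to -0.07 for genotype at 18 months, -0.05 to 0.04 for genotype at 3 months, 0.12 to 0.48 for age in Q92 and -0.71 to -0.05 for the change with age. Array weights gave -0.61 and age in days as block -0.83 for genotype at 18 months. Single members were followed over the alternatives only for the 12 of largest range. This covered 3 comparisons: age in wild type, genotype at 18 months and age in Q92. Of 552 values of single members, 8 changed sign, all for genotype at 18 months: without wt_18m_17, Rtp4 was 0.27, Trim30a 0.02, Irf9 0.09 and Ifi35 0.35; without Q92_18m_25, Rtp4 was 0.21 and Ifi35 0.27; and with the covariate, Rtp4 was 0.18 and Ifi35 0.31. Leaving out 1 mouse spanned -1.21 to 0.27 for Rtp4, -0.97 to 0.02 for Trim30a, -0.96 to 0.09 for Irf9 and -0.41 to 0.35 for Ifi35. The cause was not tested, and leaving out a mouse leaves fewer samples. Unadjusted counts for genotype at 18 months were 17 with array weights, 22 with age in days as block and 1 with the intensity trend or only the arrays compared, against 5. No paired analysis by animal was possible because the groups share no animal number; the block on age in days compares mice of equal age, which at 18 months leaves 3.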
